A study of Mus musculus with 15 samples.

Results

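The dopamine neuron genes described here are 10 genes of dopamine synthesis, transport and neuronal identity, Th, Ddc, Gch1, Slc18a2, Slc6a3, Aldh1a1, Nr4a2, Pitx3, En1 and Foxa1, chosen by their known roles. All 10 were found among the 27179 gene IDs of the count table, and 8 of them had enough reads to be tested, Pitx3 and Foxa1 being too low. The libraries were read in classes formed from brain region markers, with no olfactory list among them, and genotypes were then compared within a class. RNA-seq had been made from snap-frozen samples labelled as brain hemisphere of mice aged 12 months. The TG mice were homozygous for a transgene that places human α-synuclein under the PLP promoter, which drives expression in oligodendrocytes, and serve as a model of multiple system atrophy. The WT mice were C57Bl/6 animals without the transgene, matched for age and sex. There were 4 TG female, 3 TG male, 4 WT female and 4 WT male libraries. The sample titles carry 1 number for each of these 4 groups, followed by a library number, and the labels do not say whether the first stands for a cage, an animal or a batch. It and the group cannot be told apart, whether the libraries of a group come from separate animals is not stated, and the spread behind each p-value is that between these libraries and may be technical. In bulk RNA fewer cells of a type and less RNA per cell cannot be told apart.

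Dopamine is made from tyrosine by tyrosine hydroxylase (Th), the rate-limiting enzyme, which needs the cofactor tetrahydrobiopterin from the pathway that GTP cyclohydrolase (Gch1) opens, and then by aromatic amino acid decarboxylase (Ddc). The vesicular monoamine transporter (Slc18a2) loads it into vesicles and the dopamine transporter (Slc6a3) takes it back up at the plasma membrane. Midbrain dopamine neurons are specified and maintained by the transcription factors Nr4a2, Pitx3, En1 and Foxa1, and part of them hold the aldehyde dehydrogenase Aldh1a1, whereas the olfactory bulb has its own dopamine cells among the periglomerular interneurons. Th also serves noradrenaline neurons, and Ddc, Slc18a2 and Gch1 also serve serotonin neurons, so that a library's level of one gene does not name the cell that made it.

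The promoters of the 4 genes that carry a dopamine cell's synthesis and transport are shown because their genes followed different libraries in the values below. Each runs 5′ to 3′ on the gene's strand over 250 bases before and 25 bases after a start that RefSeq gives on GRCm38.p6. For Ddc 2 promoters are given, of which the one with a motif match, at the gene's 5′ end, is printed. The other (chr11:11890359-11890658) lies inside the gene and held none of the motifs searched. The Slc6a3 window printed below also lies inside its annotated gene, downstream of that gene's 5′ end. Counts per gene do not tell which of the 2 starts was used, so the match cannot be assigned to a start used in neurons. Capitals mark a match to the cAMP response element TGACGTCA or, in Ddc, to the Nr4a response element AAAGGTCA read on the other strand.
Th, chr7:142899971-142900245, minus strand: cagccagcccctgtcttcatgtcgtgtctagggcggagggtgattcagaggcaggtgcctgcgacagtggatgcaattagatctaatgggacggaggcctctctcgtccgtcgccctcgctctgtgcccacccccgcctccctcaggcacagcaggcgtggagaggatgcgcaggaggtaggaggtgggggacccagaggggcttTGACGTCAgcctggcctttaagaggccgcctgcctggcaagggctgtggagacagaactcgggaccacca
Ddc, chr11:11898120-11898394, minus strand: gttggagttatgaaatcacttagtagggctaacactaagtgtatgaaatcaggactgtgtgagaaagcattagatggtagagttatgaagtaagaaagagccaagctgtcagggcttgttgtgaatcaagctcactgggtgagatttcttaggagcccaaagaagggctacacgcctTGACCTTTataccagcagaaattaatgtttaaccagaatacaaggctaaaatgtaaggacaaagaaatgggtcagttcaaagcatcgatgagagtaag
Slc18a2, chr19:59260628-59260902, plus strand: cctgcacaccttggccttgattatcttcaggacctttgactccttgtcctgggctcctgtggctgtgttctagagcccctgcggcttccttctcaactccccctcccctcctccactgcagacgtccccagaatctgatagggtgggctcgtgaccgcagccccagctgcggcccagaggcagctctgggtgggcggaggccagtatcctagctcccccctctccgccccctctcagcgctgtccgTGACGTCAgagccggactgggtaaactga
Slc6a3, chr13:73536497-73536771, plus strand: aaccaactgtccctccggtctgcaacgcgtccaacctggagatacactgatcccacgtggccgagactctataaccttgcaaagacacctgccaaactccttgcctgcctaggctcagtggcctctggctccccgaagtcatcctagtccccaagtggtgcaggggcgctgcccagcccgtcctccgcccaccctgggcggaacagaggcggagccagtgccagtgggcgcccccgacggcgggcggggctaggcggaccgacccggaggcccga
Th held TGACGTCA with its first base 45 bases before the start, and Slc18a2 held it with its first base 4 bases before the start. Of 32851 promoter windows of 300 bases, 1.79% held TGACGTCA and 1.51% held AAAGGTCA, each searched on both strands. The forkhead element TGTTTAC, present in 3.65% of windows, was found in Foxa1 alone among the 10 genes, in a window inside that annotated gene. The Pitx element TAATCC, present in 7.06%, was found in none of the 10. A match is a description of the letters and not a measured binding site.

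On GRCm38.p6 the genes lie at chr7:142892779-142899995 (Th), chr11:11814101-11898144 (Ddc), chr14:47153895-47189413 (Gch1), chr19:59260878-59296012 (Slc18a2), chr13:73536128-73578672 (Slc6a3), chr19:20492583-20643463 (Aldh1a1), chr2:57106830-57124003 (Nr4a2), chr19:46135281-46148325 (Pitx3), chr1:120602487-120607991 (En1) and chr12:57540628-57548029 (Foxa1). Annotated genes overlap Ddc, Gch1, Aldh1a1, Nr4a2, Pitx3 and Foxa1, and none overlaps Th, Slc18a2, Slc6a3 or En1. Whether the counting used strand is not given in the sources used here, so reads of the 6 overlapped genes and of their partners may be mixed.

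The libraries of a group did not hold the same tissue. Libraries held 15170772 to 35850998 counts (median 17635366), and the limit that 3 counts allow was 0.0837 to 0.198 CPM (counts scaled to a common library size). Clustering on lists of cortical, striatal, cerebellar, hindbrain and hypothalamic markers, which hold none of the 10 genes, gave 4 classes. Olfactory markers did not form them. The class that remained once the hindbrain, cerebellum and cortex classes were named is called olfactory, and its bulb markers are given below. The 7 olfactory-marker libraries were TG female 2, TG male 1 and TG male 3, with WT female 1, WT female 4, WT male 1 and WT male 2. The 4 hindbrain-marker libraries were TG female 1 and TG female 4, with WT female 3 and WT male 3. The 3 cortex-marker libraries were TG male 4, with WT female 2 and WT male 4, and TG female 3 alone had cerebellar markers. WT male 1 stood apart in its class, with a summed hypothalamic marker level of 100.8 CPM against 2.91 to 6.23 CPM in the other olfactory-marker libraries, and WT male 3 stood apart in serotonin markers as given below. TG female 4 had 44.9 CPM of hypothalamic markers, against 2.96 to 3.97 CPM in the other hindbrain-marker libraries. The summed striatal markers were 1579 CPM in TG female 2 and 1470 CPM in WT male 1, against 366.1 to 930.4 CPM in the other olfactory-marker libraries.

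Th was high in the olfactory-marker libraries alone. It had 89.4, 111.5 and 118.4 CPM in TG female 2, TG male 1 and TG male 3, against 125.5, 104.6, 52.7 and 92.1 CPM in WT female 1, WT female 4, WT male 1 and WT male 2. The hindbrain-marker libraries held 6.36 and 11.5 CPM of Th in TG female 1 and TG female 4, against 9.18 and 5.49 CPM in WT female 3 and WT male 3. In the cortex-marker libraries Th was at 0.631 CPM in TG male 4, against 1.25 and 3.58 CPM in WT female 2 and WT male 4. The cerebellum-marker library, TG female 3, had 5.35 CPM of Th. The lowest olfactory-marker library, WT male 1, therefore stood above every library of the other classes, and TG and WT overlapped within the olfactory and the hindbrain class.

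Slc6a3 followed Th into the olfactory-marker libraries. It had 7.05, 10.9 and 10.9 CPM in TG female 2, TG male 1 and TG male 3, against 12.5, 10.7, 4.39 and 8.05 CPM in WT female 1, WT female 4, WT male 1 and WT male 2. The hindbrain-marker libraries had 3 and 6 Slc6a3 counts in TG female 1 and TG female 4, against 9 and 5 counts in WT female 3 and WT male 3. TG male 4 had 0 counts, against 1 and 8 counts in WT female 2 and WT male 4, and TG female 3 had 2 counts. Slc6a3 was thus clearly detected where bulb markers were high, and no library of the other classes had more than 9 counts of it. WT male 4 also had the most bulb markers of the cortex class. Its summed olfactory bulb list was 78.3 CPM, against 8.27 CPM in TG male 4 and 10.9 CPM in WT female 2. The part of this in its Th and Slc6a3 was not tested. The olfactory-marker libraries thus held the transporter together with Th. The rule first set for bulb dopamine cells asked for Th with Slc6a3 near 0 beside bulb markers. With 4.39 to 12.5 CPM of Slc6a3, the olfactory class did not meet that rule.

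**Figure D1:**
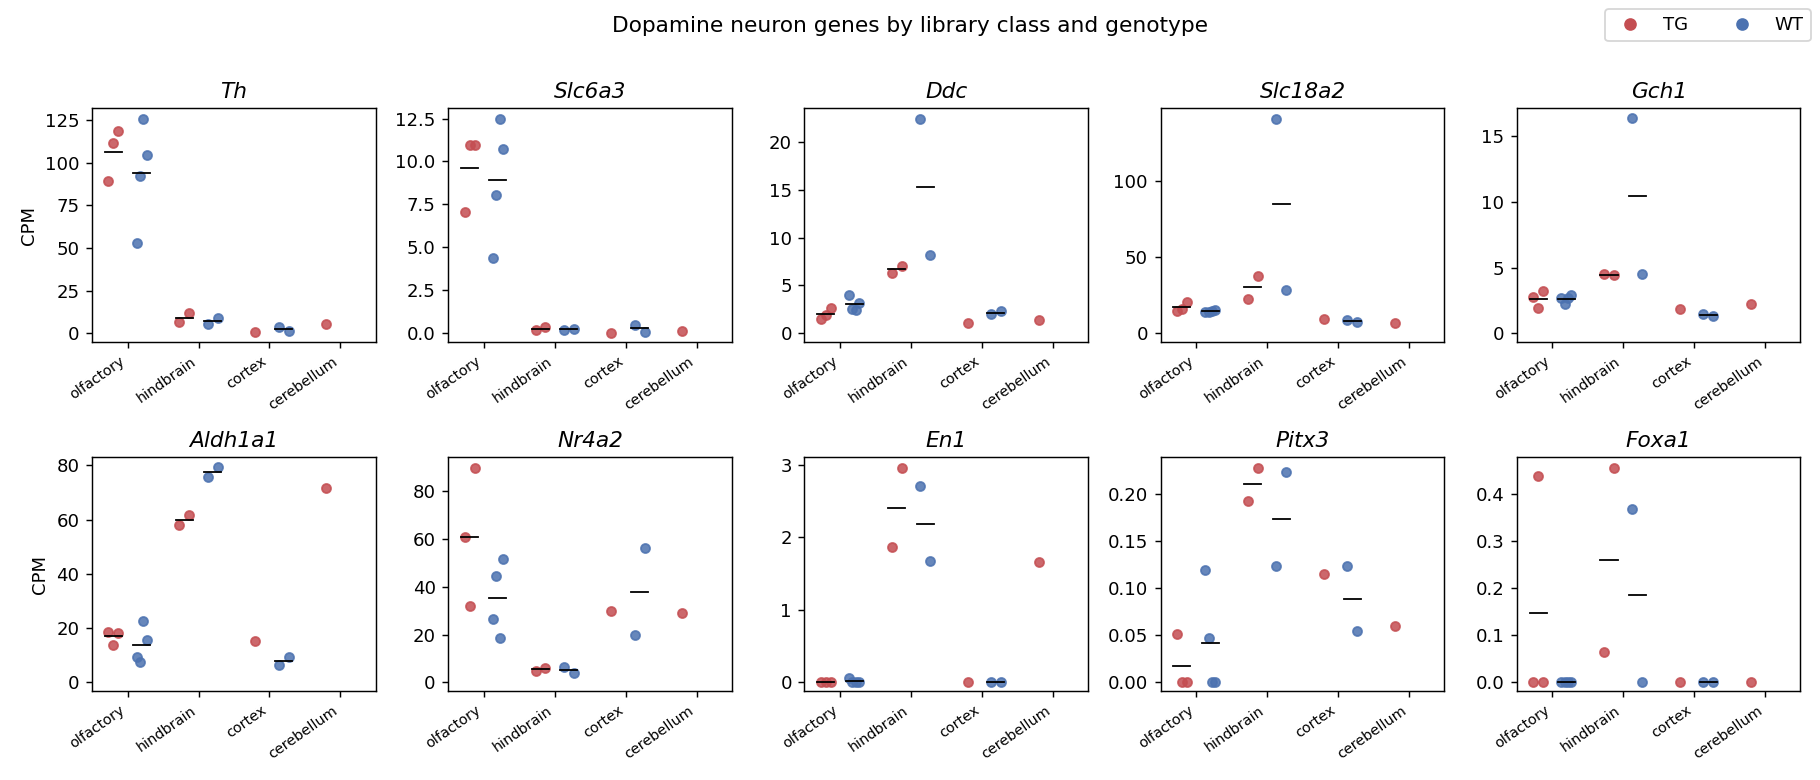
Level of each dopamine neuron gene in CPM (linear axis, 1 panel a gene) by marker class of the library, with TG points left of WT points and a black bar at the mean of each group of more than 1 library. Th and Slc6a3 sit highest in the olfactory-marker libraries, while Ddc, Slc18a2 and Gch1 sit highest in hindbrain-marker libraries, Aldh1a1 and En1 in hindbrain- and cerebellum-marker libraries, and WT male 3 is the top point of Ddc, Slc18a2 and Gch1.

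Within the olfactory-marker libraries Slc6a3 ran at a narrow ratio to Th. There were 7.88, 9.83 and 9.23 Slc6a3 counts per 100 Th counts in TG female 2, TG male 1 and TG male 3, against 9.94, 10.3, 8.34 and 8.75 in WT female 1, WT female 4, WT male 1 and WT male 2. Corrected for the length of the annotated exons, Slc6a3 stood at 5.39 to 7.01 per 100 of Th in these 7 libraries. The ratio was 2.74 to 3.73 counts per 100 Th counts in the hindbrain-marker libraries, where it rests on 3 to 9 Slc6a3 counts, and 2.22 in TG female 3, on 2 counts. WT male 1, the lowest of the class in both genes, had a ratio inside the range of the others.

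**Figure D2:**
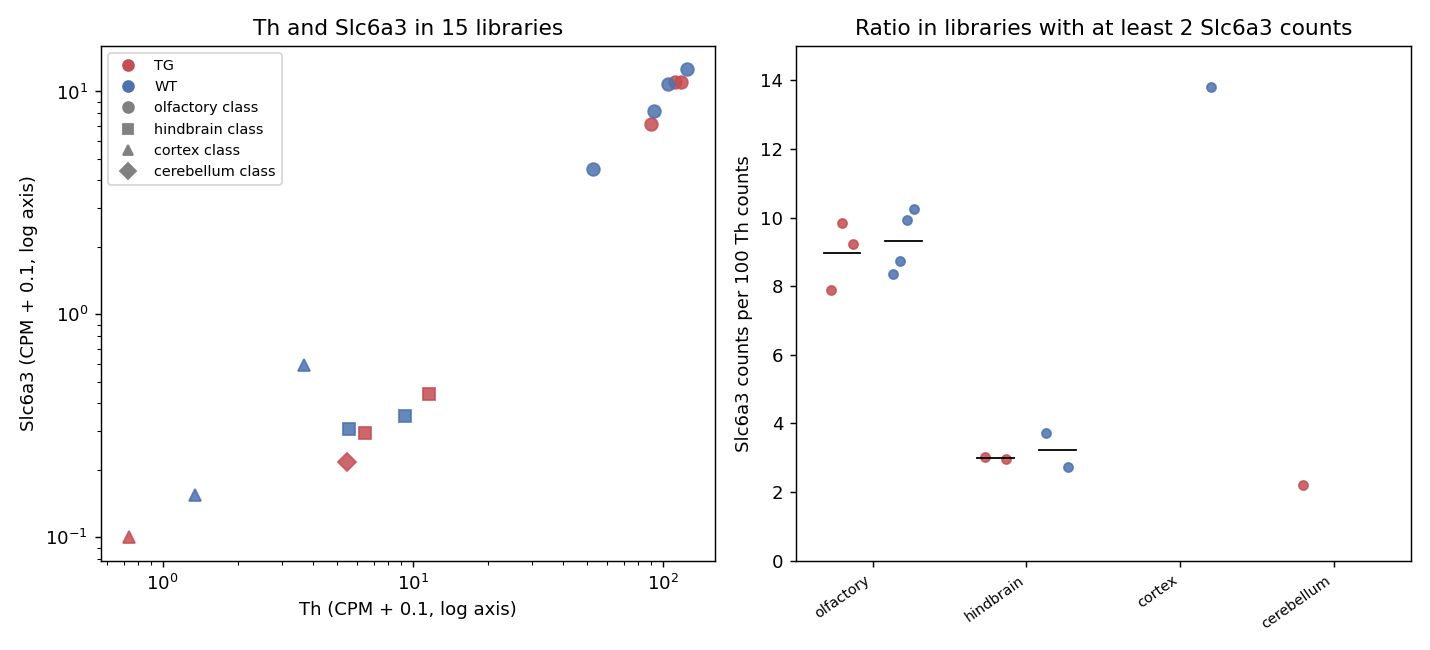
Left, Slc6a3 against Th in the 15 libraries (CPM + 0.1, log axes, colour for genotype, symbol for marker class); right, Slc6a3 counts per 100 Th counts by class in libraries with at least 2 Slc6a3 counts, black bars being means. The 7 olfactory-marker libraries form a group at 52.7 to 125.5 CPM of Th and 4.39 to 12.5 CPM of Slc6a3, away from all others; the point at 13.8 on the right is WT male 4, on 8 Slc6a3 and 58 Th counts.

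Bulb markers stood beside Th in the olfactory class, though not alone. Omp, a marker of olfactory sensory axons, ran at 42.0 to 158.6 CPM there and at most at 2.70 CPM elsewhere. Dlx5 and Sp8, transcription factors of bulb interneurons, ran at 23.4 to 48.6 and at 70.2 to 189.7 CPM there, and at most at 5.49 and 9.31 CPM elsewhere. The summed bulb interneuron list was 3725 to 4697 CPM in the TG libraries of this class and 2765 to 4358 CPM in its WT libraries. It was not confined to the class, with 701.1 to 954.1 CPM in hindbrain-marker libraries, 859.6 to 952.2 CPM in cortex-marker libraries and 1438 CPM in TG female 3. The olfactory-marker libraries also held 749 to 1282 CPM of the summed cortical list, against 2409 to 2681 CPM in the cortex-marker libraries. Of the genes taken as defining midbrain dopamine neurons, all but Slc6a3 were low: Pitx3 was at most 0.119, Lmx1a at most 0.119 and En1 at most 0.0594 CPM in the class, and Chrna6, a nicotinic receptor subunit of midbrain dopamine neurons, at most 0.361 CPM. Other genes of the wider midbrain list were present, such as the potassium channel Kcnj6 at 29.0 to 40.9, the transcription factor Sox6 at 17.3 to 32.3 and the receptors Gfra1 at 16.5 to 67.5 and Ret at 9.33 to 17.4 CPM. The summed list of 17 genes was 123.9 to 171.7 CPM in the TG libraries of the class and 135.0 to 359.5 CPM in its WT libraries, with 0 to 2 genes at 0. WT male 1 had the lowest Sp8, 70.2 CPM against 138.1 CPM or more in the 6 others, beside the lowest Th and Slc6a3.

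Scaled to the bulb interneuron list, Th in the olfactory-marker libraries came to 24.0, 25.3 and 25.2 counts per 1000 list counts in TG female 2, TG male 1 and TG male 3. The WT values were 28.8, 24.6, 19.1 and 24.2 in WT female 1, WT female 4, WT male 1 and WT male 2. All 3 TG values lay inside the WT range on this scale, whose lower end was WT male 1 alone. TG female 2 was below the next WT value, 24.2 in WT male 2. Scaled to the summed olfactory bulb list, Th came to 104.8 to 115 counts per 1000 list counts in TG. The WT libraries then had 111 to 137.3, highest in WT male 1.

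The genes whose levels most resembled Th over the 15 libraries, among 13874 named genes, were Mdga1, Zfp516, Sp7, Lgr5 and Lgr6, with Pearson r of 0.985, 0.985, 0.983, 0.980 and 0.979 on log2(CPM + 0.5). Slc6a3 ranked 38 for Th with r = 0.958. For Slc6a3 the most similar were Cdca7l, Cpa6, Nmb, Trdn and Hephl1 with r from 0.993 to 0.995, Omp ranked 10 with r = 0.990 and Th ranked 110. Ddc, Slc18a2 and Gch1 had r of -0.11, 0.07 and -0.01 with Th. These correlations describe 15 libraries whose regions differ, and every gene of the bulb shares that difference.

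In the hindbrain-marker libraries Th stood beside the noradrenaline marker Dbh, dopamine beta-hydroxylase, which turns dopamine into noradrenaline. Dbh was at 4.95 and 7.05 CPM in TG female 1 and TG female 4, against 7.56 and 5.90 CPM in WT female 3 and WT male 3, and at most 0.422 CPM in any other library. There were 1.29 and 1.64 Th counts per Dbh count in TG female 1 and TG female 4, against 1.21 and 0.931 in WT female 3 and WT male 3. In the olfactory-marker libraries that ratio was 148 to 1892, on 1 to 9 Dbh counts a library. The summed noradrenaline list was 10.4 and 26.5 CPM in the TG and 16.2 and 12.3 CPM in the WT hindbrain-marker libraries, with 1 of its 5 genes at 0. How much of the Th reads in these 4 libraries came from noradrenaline neurons was not tested.

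Ddc, Slc18a2 and Gch1, the members that serotonin neurons also use, were highest in the hindbrain-marker libraries and above all in WT male 3. Slc18a2 had 22.3 and 37.6 CPM in TG female 1 and TG female 4, against 28.1 and 140.6 CPM in WT female 3 and WT male 3. Ddc had 6.30 and 7.05 CPM in TG female 1 and TG female 4, against 8.23 and 22.5 CPM in WT female 3 and WT male 3. Gch1 had 4.50 and 4.43 CPM in TG female 1 and TG female 4, against 4.49 and 16.4 CPM in WT female 3 and WT male 3. For each of the 3 genes WT male 3, a single library, stood above the other 14.

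The serotonin markers were highest in the same library. Tph2, the neuronal tryptophan hydroxylase, had 9.06 and 19.8 CPM in TG female 1 and TG female 4, against 15.1 and 127.2 CPM in WT female 3 and WT male 3, and at most 1.55 CPM elsewhere. Slc6a4, the serotonin transporter, had 3.47 and 8.52 CPM in TG female 1 and TG female 4, against 5.08 and 54.9 CPM in WT female 3 and WT male 3. The summed list of 6 serotonin genes was 60.9 and 98.9 CPM in these TG libraries, against 69.3 and 279.7 CPM in the WT libraries, with no gene at 0. The part of serotonin neurons in the levels of Ddc, Slc18a2 and Gch1 was not tested.

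**Figure D3:**
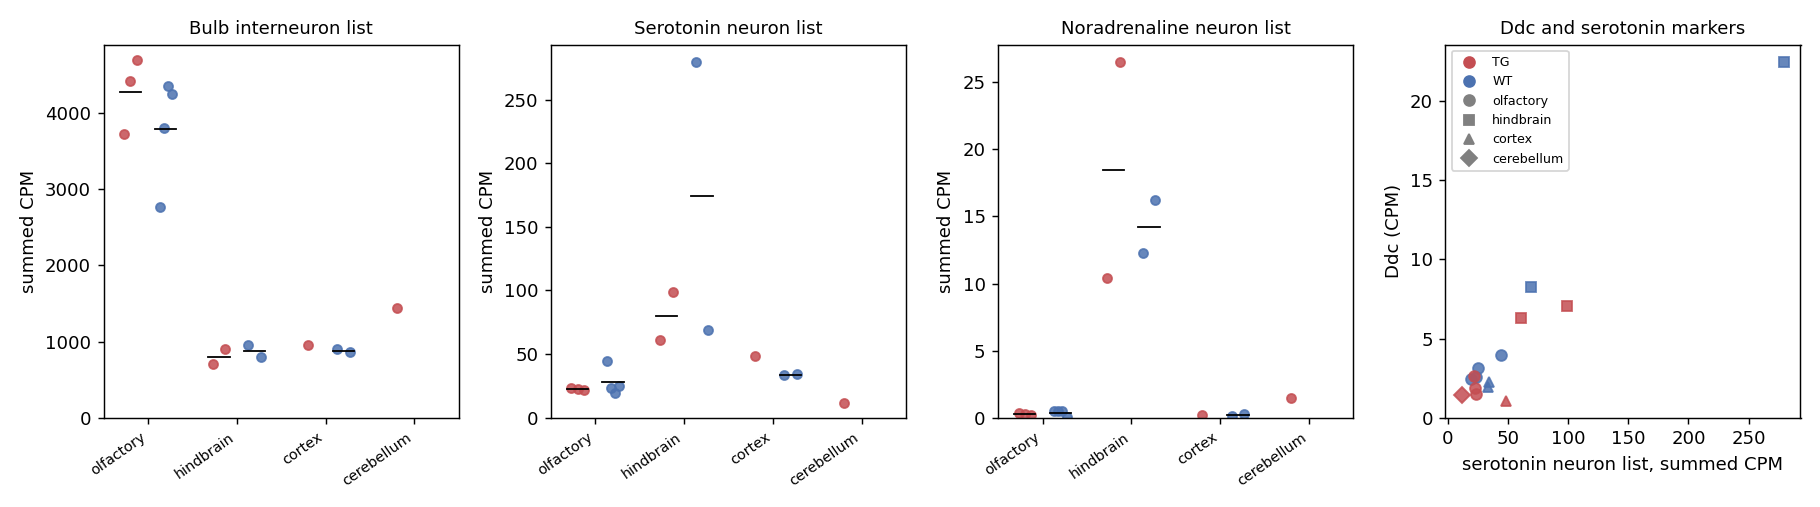
Summed CPM of the bulb interneuron, serotonin neuron and noradrenaline neuron lists by marker class (TG points left of WT points, black bars at means of groups of more than 1 library) and, on the right, Ddc in CPM against the summed serotonin list in each library. The bulb list is highest in the olfactory class, the other lists in the hindbrain class, and WT male 3 is the far point of the right panel at 22.5 CPM of Ddc and 279.7 CPM of the serotonin list.

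Outside the hindbrain class the same genes were lower. In the olfactory-marker libraries Slc18a2 was at 14.5, 15.9 and 20.3 CPM in TG female 2, TG male 1 and TG male 3, against 14.5, 14.9, 13.8 and 13.9 CPM in WT female 1, WT female 4, WT male 1 and WT male 2. Gch1 was at 2.74, 1.92 and 3.24 CPM in these TG libraries, against 2.65, 2.93, 2.67 and 2.23 CPM in these WT libraries. Ddc was at 1.52, 1.86 and 2.64 CPM in these TG libraries, against 2.47, 3.15, 3.98 and 2.56 CPM in these WT libraries. In the cortex-marker libraries Slc18a2 was at 7.40 to 9.30, Gch1 at 1.31 to 1.84 and Ddc at 1.09 to 2.28 CPM. TG female 3 had 6.48 CPM of Slc18a2, 2.26 CPM of Gch1 and 1.43 CPM of Ddc.

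Aldh1a1 was highest in the hindbrain and cerebellar libraries, at 57.8 and 61.7 CPM in TG female 1 and TG female 4, against 79.3 and 75.9 CPM in WT female 3 and WT male 3, and at 71.7 CPM in TG female 3. The olfactory-marker libraries had 13.6 to 18.7 CPM in the TG and 7.45 to 22.7 CPM in the WT mice. In the cortex-marker libraries Aldh1a1 was at 15.2 CPM in TG male 4, against 9.46 and 6.17 CPM in WT female 2 and WT male 4. The 5 libraries with hindbrain or cerebellar markers thus all stood above the other 10, whose highest value was 22.7 CPM.

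En1, a homeobox gene of the midbrain and hindbrain border, was detected in the same 5 libraries. It had 1.86 and 2.95 CPM in TG female 1 and TG female 4, against 1.67 and 2.70 CPM in WT female 3 and WT male 3, with 1.66 CPM in TG female 3. Of the other 10 libraries, 9 had 0 counts of En1 and WT male 1 had 1 count. Pitx3, Lmx1a and Foxa2 reached at most 0.227, 0.455 and 0.123 CPM in the hindbrain-marker libraries. Some other genes of the midbrain list ran higher than these there, such as Ret at 70.4 to 87.8 and Dlk1 at 119.3 to 205.8 CPM. Among them were also the bile acid transporter family member Slc10a4 at 12.5 to 27.4 and Lmx1b at 3.40 to 8.998 CPM. Others were lower there than in other classes. Kcnj6 was at 10.7 to 17.5 CPM, against 29.0 to 40.9 CPM in the olfactory-marker libraries. Chrnb3, a nicotinic receptor subunit, was at most 0.682 CPM, against 2.78 to 6.03 CPM in the cortex-marker libraries. The summed midbrain list was 437.1 and 451.2 CPM in the TG and 412.0 and 519.7 CPM in the WT hindbrain-marker libraries. That sum was highest in the cerebellum-marker library, TG female 3, at 1056 CPM, of which Calb1 held 744.2 CPM. En2, the paralogue of En1, ran at 197.2 CPM in TG female 3 and at 4.71 to 6.04 CPM in the hindbrain-marker libraries. No library therefore held the set of Slc6a3, Pitx3, En1, Chrna6 and Lmx1a at levels well above the 3-count limit, and no comparison of genotypes in midbrain dopamine cells was made.

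Nr4a2, a nuclear receptor needed by midbrain dopamine neurons and also expressed in cortex and bulb, was lowest in the hindbrain-marker libraries, with 4.76 and 6.08 CPM in TG female 1 and TG female 4, against 3.99 and 6.55 CPM in WT female 3 and WT male 3. The olfactory-marker libraries had 60.8, 31.8 and 90.0 CPM in TG female 2, TG male 1 and TG male 3, against 18.6, 51.8, 26.5 and 44.4 CPM in WT female 1, WT female 4, WT male 1 and WT male 2. TG male 4 had 29.8 CPM, against 56.1 and 19.9 CPM in WT female 2 and WT male 4, and TG female 3 had 28.8 CPM. The olfactory, cortex and cerebellar libraries overlapped, and only the hindbrain class stood apart.

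Pitx3, a homeobox gene of midbrain dopamine neurons, had 0 to 8 counts per library. The 8 counts were in WT female 3. Foxa1, a forkhead factor, had 8 counts each in TG female 4 and TG male 1 and 9 in WT male 3, with 1 count in TG female 1 and 0 counts in the 11 others. Foxa1 so appeared in libraries of both the hindbrain and the olfactory class, and for Foxa1 and Pitx3 a genotype difference was not detectable at this depth.

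The question of the study is what the α-synuclein transgene changes, and none of the 8 tested members was called between TG and WT. Over all 15 libraries with sex as a covariate, the quasi-likelihood F test of edgeR called 0 of 8 members at a Benjamini-Hochberg adjusted p of 0.05, beside 0.111% of the 17151 genes tested. The log2 fold changes of TG over WT were -0.10 ± 1.14 for Th, -0.27 ± 1.32 for Slc6a3, -0.90 ± 0.68 for Ddc, -0.52 ± 0.67 for Slc18a2 and -0.42 ± 0.54 for Gch1 (fitted value ± SE, n = 7 TG and 8 WT). They were 0.11 ± 0.64 for Aldh1a1, 0.30 ± 0.67 for Nr4a2 and -0.14 ± 1.65 for En1. The SE of Th and Slc6a3 was over 1 on the log2 scale, the libraries spanned 4 marker classes in TG and 3 in WT, and TG and WT overlapped for all 10 genes.

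With the library class as a term the biological coefficient of variation over all genes was 14.2%, against 43.1% without it. The same edgeR test then called 85 genes, 0.496% of those tested, and again 0 of 8 members. Classes formed from z-scored marker means, as first set, gave 29 genes and also 0 members. Th was at 0.12 ± 0.28, Slc6a3 at 0.09 ± 0.36 and Slc18a2 at -0.28 ± 0.30 (log2 fold change ± SE). Gch1 was at -0.30 ± 0.27, Aldh1a1 at 0.22 ± 0.25, Nr4a2 at 0.41 ± 0.36 and En1 at 0.43 ± 0.42. The values of Slc18a2 and Gch1 rest on 1 library: without WT male 3 they were 0.18 and 0.09. Th and Slc6a3 were -0.008 and -0.19 without WT male 1.

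Ddc was the member nearest to a call. With the class term its log2 fold change of TG over WT was -0.83 ± 0.20, and edgeR's Benjamini-Hochberg adjusted p was 0.136. DESeq2's Wald test gave -0.83 ± 0.22 and an adjusted p of 0.0216, which passes 0.05, and called 175 genes in all. Over the other settings and left-out libraries the edgeR estimate stayed between -0.96 and -0.49, and it was -0.60 without WT male 3, edgeR's adjusted p then being 0.384. Its adjusted p over all alternatives, DESeq2 included, ran between 0.0216 and 0.949. Within classes Ddc ranged over 1.52 to 2.64 CPM in the TG olfactory-marker libraries and over 2.47 to 3.98 CPM in the WT ones, which overlap through TG male 3 and WT female 1. In the cortex-marker libraries it was at 1.09 CPM in TG male 4, on 19 counts, against 2.28 and 1.97 CPM in WT female 2 and WT male 4, on 42 and 32 counts. Tph2 was at most 0.963 and Slc6a4 at most 0.419 CPM in the olfactory-marker libraries.

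Within the olfactory-marker libraries the edgeR test called 42 genes, 0.245% of those tested, and 0 of the 7 members with a value, En1 being at 0 or 1 count there. Th had a log2 fold change of 0.25 ± 0.34 (edgeR, adjusted p 0.828), for means of 106.4 ± 15.1 CPM in TG and 93.7 ± 30.6 CPM in WT (SD, n = 3 and 4). Slc6a3 was at 0.18 ± 0.38, for 9.64 ± 2.25 CPM in TG and 8.91 ± 3.52 CPM in WT. Both turned below 0 when WT male 1 was left out, to -0.0017 for Th and -0.17 for Slc6a3. Ddc was at -0.70 ± 0.31 (edgeR, adjusted p 0.630). Nr4a2 was at 0.81 ± 0.49, Aldh1a1 at 0.48 ± 0.25, Slc18a2 at 0.12 ± 0.42 and Gch1 at -0.05 ± 0.38. None of the 10 genes separated TG from WT in this class, against 6.73% of the 16078 genes with at least 150 counts over all libraries. En1, Pitx3 and Foxa1 had libraries at 0 counts in both genotypes here, so they could not separate. For so few genes, 0 cannot be told from that share.

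Within the hindbrain-marker libraries the edgeR test called 12 genes, 0.07% of those tested, and 0 of the 7 members with a value, Slc6a3 having 3 to 9 counts there. The log2 fold changes were 0.20 ± 0.51 for Th, -0.02 ± 0.82 for Nr4a2 and 0.56 ± 0.47 for En1. Ddc was at -0.83 ± 0.37 (edgeR, adjusted p 0.845), and Aldh1a1 at -0.69 ± 0.31. Slc18a2 was at -1.04 ± 0.57 and Gch1 at -0.94 ± 0.49, and without WT male 3 they were 0.10 and -0.00045, while Ddc was -0.29. With 2 libraries a genotype, Ddc and Aldh1a1 were lower in both TG libraries than in both WT libraries, as were 21.3% of all 16078 genes compared.

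**Figure D4:**
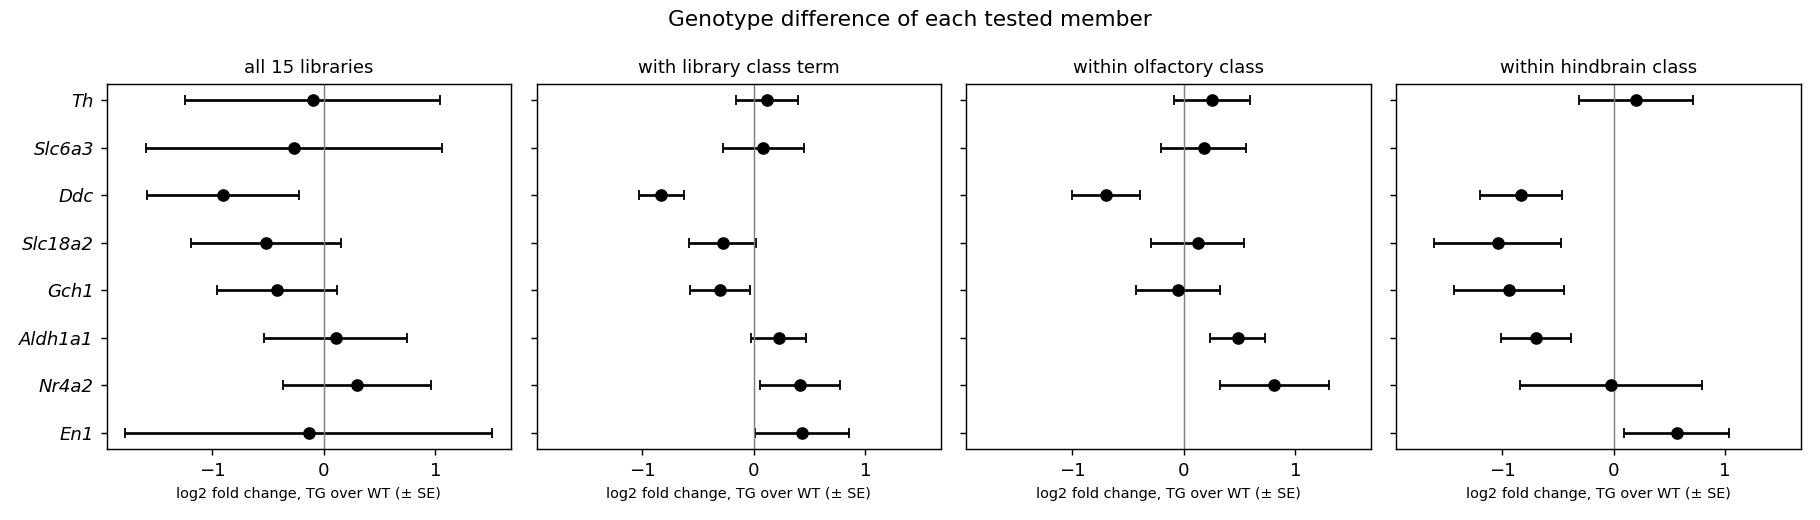
Log2 fold change of TG over WT for each member with a value, as points with bars of 1 SE, from all libraries, with the class term, within olfactory-marker and within hindbrain-marker libraries. The bars of Th and Slc6a3 are widest without the class term, and Ddc is below 0 in all 4 comparisons, from -0.90 to -0.70.

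The genotype effect was also compared between the hindbrain and olfactory classes, where 0.0117% of the genes tested and 0 members were called by edgeR after Benjamini-Hochberg adjustment. Aldh1a1 had the smallest p among the members, with an effect lower by 1.18 ± 0.41 on the log2 scale in the hindbrain class (log2 difference -1.18, edgeR's adjusted p 0.851). Ddc had a difference of -0.14 ± 0.50 and Th of -0.05 ± 0.63.

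Between the sexes, with genotype and class as terms, 0.07% of the genes tested and 0 of 8 members were called by edgeR after Benjamini-Hochberg adjustment. Slc18a2 was at -0.81 ± 0.30 in females relative to males, Ddc at -0.50 ± 0.20 and Gch1 at -0.59 ± 0.27, each at an adjusted p of 0.874 by edgeR. Without WT male 3, Slc18a2 was at -0.11, Ddc at -0.15 and Gch1 at 0.06, so these values rest on that library. Th was at 0.24 ± 0.29 and Slc6a3 at 0.19 ± 0.36. The genotype effect did not pass the test of a difference between the sexes for any gene, 0% being called by edgeR, with 2143 genes at an unadjusted p under 0.05 and 100 genes called by DESeq2. Aldh1a1 had the smallest p of the members in that interaction, at -1.09 ± 0.46 for the log2 effect of TG in females minus that in males (edgeR, adjusted p 0.378).

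The wider dopamine pathway held no call for genotype in any of these comparisons. Of 12 dopamine receptors and postsynaptic partners, 11 were tested and 0 rose or fell, with a median log2 fold change of -0.14 under the class term, beside 0.00 over all genes. In the genotype-by-sex interaction, female minus male, the same 11 genes were all above 0 with a median of 1.65, 6 of them at an unadjusted p under 0.05 and 0 called by edgeR. The 8 striatal projection neuron markers were also all above 0 there, with a median of 2.07. The summed receptor list was 476.2 to 1912 CPM in the TG olfactory-marker libraries, highest in TG female 2, and 555.9 to 1991 CPM in the WT ones, highest in WT male 1, the same libraries that were highest in striatal markers, whose part was not tested. The smallest p for genotype with the class term was that of Drd5, a Gs-coupled dopamine receptor, at -0.45 ± 0.28, and it was at -0.91 ± 0.34 within the olfactory class. All 7 genes of tetrahydrobiopterin synthesis and recycling were tested and 0 were called, with a median of -0.15 under the class term. Pts, which makes the pterin intermediate after Gch1, was at -0.17 ± 0.06, and Pcbd1, which recycles the cofactor, was at -0.49 ± 0.22. All 7 genes of dopamine breakdown were tested, with 0 called and a median of -0.04. With the class term 4 of these 7 had an unadjusted p under 0.05 by edgeR, beside 8.4% of all genes tested. The same held for 2 tetrahydrobiopterin genes, 0 receptors and partners and 1 gene of the midbrain list. Maob, the monoamine oxidase of astrocytes and serotonin neurons, was at -0.29 ± 0.09 (edgeR, adjusted p 0.357), and the sulfotransferase Sult1a1 was at 0.38 ± 0.13. Of 17 midbrain identity genes and receptors, 15 were tested and 0 were called, with a median of -0.16 under the class term. Ret, a receptor for GDNF-family ligands, was at -0.32 ± 0.12 and Ntsr1, a neurotensin receptor, at -0.61 ± 0.31.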

How the data were processed

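RNA-seq counts of 15 libraries were used. Per the submitters' processing notes, the authors aligned reads with STAR 2.7.5b to GRCm38 and counted them with featureCounts from Subread, and the deposited values are whole-number counts per NCBI gene ID. Strand, fragment and multiple-match settings are not given in the sources used here. Columns were matched to samples by title, and 25275 IDs by RefSeq symbol.

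The filter filterByExpr, run with the 4 groups of genotype and sex, left 17151 genes. Tests used edgeR 4.0.16 under R 4.3.3 (TMM scaling, robust quasi-likelihood F test, Benjamini-Hochberg adjustment over all genes tested, threshold 0.05). Genotype was tested with sex, then with the marker class of the library as a further term, and within classes as contrasts of class-by-genotype means. A fit of all 15 libraries gives the spread for each class. CPM use TMM-scaled library sizes. Libraries of a group differed by more than counting noise (chi-square per gene of at least 6.34). DESeq2 1.42.0 was an alternative.

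Classes came from Ward clustering into 4 of mean log2 CPM of the region marker lists, which include no olfactory list. The rule first set used z-scored means, which put WT male 1 in a class of its own and left no olfactory class with both genotypes. The z-scoring was therefore dropped after the data were seen, and the first rule is given as an alternative. The members, lists, motifs and comparisons were chosen with earlier results of these data known. All 10 members are named, with up to 2 genes of smallest p from each pathway list and the 5 genes most like Th and Slc6a3. Other marker genes given with levels (Foxa2, En2, Kcnj6, Sox6, Gfra1, Dlk1, Slc10a4, Lmx1b, Chrnb3, Calb1 and the rank of Omp) were chosen after their values were seen.

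Counts of the 17151 genes left by the filter were simulated, with a change put into a randomly drawn set of them. That set was not matched to the members in level or spread. The filter was then run again and left 17017 genes in the fits given here. Changed genes that it removed count as not recovered. The fit with the class term recovered 60% of the genes changed 1.5-fold and 78% of those changed 2-fold, and called 5 unchanged genes. Within the olfactory class 44% and 64% were recovered, with 10 unchanged genes called, and within the hindbrain class 12% and 48%, with 6. The 3-count limits cover counting error only, whereas the ± values (SE or SD) rest on the spread between libraries.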

Additional observations from a re-analysis of the deposited data

Results flagged for a closer look

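In 12 of 40 checks, each of 1 member in 1 group of libraries, 1 library lay far from the others of its group. Chance gives such a library in about 1 of 20 separate checks. The checks here overlap, as libraries were checked by genotype and sex and again by genotype. The groups also mix libraries with markers of different regions.

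TG female 2, the olfactory-marker library among the TG females, was far above the other 3 in Th (89.4 CPM) and in Slc6a3 (7.05 CPM). WT female 3, the hindbrain-marker library among the WT females, was far above the other 3 in Ddc (8.23 CPM) and En1 (1.67 CPM).

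WT male 3, the hindbrain-marker library among the WT males, was far above the other 3 in Ddc (22.5 CPM), Slc18a2 (140.6 CPM), Gch1 (16.4 CPM), Aldh1a1 (75.9 CPM) and En1 (2.70 CPM). It was also far above the 7 other WT libraries in Ddc, Slc18a2 and Gch1, at the same values. Its summed serotonin markers were at 279.7 CPM, and their part in these levels was not tested.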

How the results depend on the processing

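No member was called in any comparison under any setting, left-out libraries included, except Ddc with the class term under DESeq2, where 1 member was called. Whether replicate numbers pair the samples could not be told. In 7 of 21 pairs the correlation of same-numbered libraries was over 0.1, with a range of -0.65 to 0.93. It was taken on deviations from group means, which also carry the region of a library. The highest was that of WT male 3 and WT female 3, both hindbrain-marker libraries. With the replicate number as a block 0 members were called. Genes called were then 16 over all libraries, 53 with the class term, 2 within the olfactory class, 1 within the hindbrain class, 0 between classes and 8 between sexes. The main values were 19, 85, 42, 12, 2 and 12. DESeq2 called 40, 175, 115, 36 and 38 in the first 5, and 100 in the interaction. With z-scored classes 29 genes were called with the class term, 2 in the hindbrain class and 7 between sexes. Without hindbrain and cerebellum libraries 7 were called over all and 41 with the class term, and without WT male 1 and WT male 3, 52. Leaving out 1 library gave 14 to 21 over all, 56 (TG male 4) to 86 with the class term, 18 (TG female 2 or TG male 3) to 69 (WT male 4) in the olfactory class, 4 (WT male 3 or TG female 4) to 15 in the hindbrain class and 0 to 25 between classes. These alternatives were added after the data were seen: z-scored classes, the class term without those libraries, and the hindbrain class alone.

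Log2 fold changes of TG over WT that changed sign were as follows, and the cause was not tested. Over all libraries the replicate block gave 0.0178 for Th and 1.14 for En1. There no sex term gave 0.65 for En1, and leaving out the hindbrain and cerebellum libraries gave 0.49 for Th, 0.46 for Slc6a3, 0.29 for Slc18a2 and 0.17 for Gch1. With the class term DESeq2 gave -0.0526 for Th and -0.0474 for Slc6a3, and the block gave -1.08 for En1. There leaving out hindbrain and cerebellum libraries gave 0.20 for Slc18a2 and 0.12 for Gch1. Without WT male 1 and WT male 3 the class term gave -0.17 for Th, -0.23 for Slc6a3, 0.15 for Slc18a2 and 0.11 for Gch1. Within the olfactory class Gch1 was 0.0101 with no sex term and 0.0246 in the class alone. Within the hindbrain class the block gave -0.41 for En1 and 1.33 for Nr4a2, which was 0.0685 with no sex term and 0.0647 in the class alone.

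Leaving out each library in turn, values that changed sign ranged, over all libraries, from -0.74 to 0.28 for Th, -1.02 to 0.14 for Slc6a3, -0.84 to 0.32 for Slc18a2, -0.62 to 0.22 for Gch1, -0.11 to 0.86 for Aldh1a1, -0.0793 to 0.54 for Nr4a2 and -0.75 to 1.55 for En1. With the class term they ranged from -0.00798 to 0.24 for Th, -0.19 to 0.40 for Slc6a3, -0.41 to 0.18 for Slc18a2, -0.44 to 0.0876 for Gch1 and -0.14 to 0.66 for En1. In the olfactory class they ranged from -0.0017 to 0.56 for Th, -0.17 to 0.65 for Slc6a3, -0.0296 to 0.24 for Slc18a2 and -0.31 to 0.17 for Gch1. In the hindbrain class they ranged from -0.29 to 0.62 for Th, -2.12 to 0.10 for Slc18a2 and -0.60 to 0.45 for Nr4a2. Between the sexes Gch1 ranged from -0.72 to 0.0553.

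Pitx3, Foxa1 and, outside the olfactory class, Slc6a3 had at most 9 counts a library, and the cerebellum class has 1 library.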
